A study of Homo sapiens with 4 samples.

Results

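HEK293 cells were examined for message of 8 protein kinase C (PKC) genes, PRKCA, PRKCB, PRKCD, PRKCE, PRKCH, PRKCQ, PRKCI and PRKCZ. The probes were taken by gene name, as every probe whose RefSeq accession maps to one of the 8 genes. They make up 8 of the 17217 named genes on the array, with 9 targets and 27 of 71998 probes. HEK293 is an established human line of embryonic kidney origin that carries adenovirus sequence. The 4 samples are 4 untreated plates of this line grown to confluence in DMEM with serum, each with its own RNA extraction and its own single-colour hybridisation, so that there is 1 group and no treatment, genotype or time point to compare. One cell line grown in culture stands for no tissue, and an array of a whole culture cannot tell a few cells with much of a message from many cells with little.

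PKC enzymes are serine and threonine kinases that act downstream of receptors coupled to Gq. Phospholipase C splits a membrane lipid into inositol trisphosphate, which releases calcium, and diacylglycerol, which stays in the membrane. The conventional isoforms need both calcium and diacylglycerol. The delta, epsilon, eta and theta isoforms respond to diacylglycerol without calcium, and the atypical isoforms, iota and zeta, respond to neither and are held in place by partner proteins of cell polarity. In this line PKC is best known as a step between transfected receptors and their desensitisation, calcium entry and mitogen-activated kinase signals.

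The promoters of 4 members are shown. PRKCA and PRKCQ had the highest and the lowest share of G and C among the member windows, the PRKCZ window held a motif found in no other member window, and PRKCB is the gene whose targets disagreed on the arrays. Each stretch is the 250 bases before a transcript start, 5′ to 3′ on the strand of the gene, taken from RefSeq windows of GRCh38.p14. Capitals mark GGGCGG (the GC box) on either strand, TATAAA and TGACGTCA (the cyclic AMP response element). The stretches lie at chr17:66302363-66302612 on the plus strand for PRKCA, chr16:23835733-23835982 on the plus strand for PRKCB, chr10:6580647-6580896 on the minus strand for PRKCQ and chr1:2073414-2073663 on the plus strand for PRKCZ.
PRKCA: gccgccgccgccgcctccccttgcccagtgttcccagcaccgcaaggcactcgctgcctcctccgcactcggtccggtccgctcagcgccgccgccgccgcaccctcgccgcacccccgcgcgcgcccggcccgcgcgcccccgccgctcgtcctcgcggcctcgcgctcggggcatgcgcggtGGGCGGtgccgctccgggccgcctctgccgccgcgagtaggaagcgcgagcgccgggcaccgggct
PRKCB: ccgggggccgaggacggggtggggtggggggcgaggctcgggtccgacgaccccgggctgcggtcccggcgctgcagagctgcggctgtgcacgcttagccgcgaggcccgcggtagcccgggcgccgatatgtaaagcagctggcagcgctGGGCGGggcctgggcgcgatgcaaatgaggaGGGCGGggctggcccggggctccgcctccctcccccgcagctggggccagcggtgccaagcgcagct
PRKCQ: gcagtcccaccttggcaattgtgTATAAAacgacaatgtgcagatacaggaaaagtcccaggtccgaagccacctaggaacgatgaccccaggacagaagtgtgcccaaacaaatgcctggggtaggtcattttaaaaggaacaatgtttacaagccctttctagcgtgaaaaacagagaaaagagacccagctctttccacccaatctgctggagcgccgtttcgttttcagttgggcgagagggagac
PRKCZ: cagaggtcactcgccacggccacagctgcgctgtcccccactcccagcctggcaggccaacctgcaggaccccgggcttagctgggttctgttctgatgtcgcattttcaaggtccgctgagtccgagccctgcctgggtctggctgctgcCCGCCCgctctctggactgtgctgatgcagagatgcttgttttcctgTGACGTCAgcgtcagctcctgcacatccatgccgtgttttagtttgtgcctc

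All 8 members had at least 1 window in the RefSeq table, 13 windows in all. The PRKCA stretch was 82.0% G or C and held 47 CG steps, and more CG steps than 99.7% of the 35116 windows in the table. The PRKCB stretch was 77.2% G or C with 30 CG steps. PRKCQ had 49.2% G or C and 8 CG steps, against medians of 58.0% and 11 over all windows. A GC box was found in 10 of the 13 member windows, against 42.6% of all windows, and PRKCQ was the member without one. PRKCQ was the only member with TATAAA, which began 227 bases before the start, and 10.7% of all windows held these letters. The PRKCZ window shown, 1 of 4 for that gene, was the only member window with TGACGTCA, which began 52 bases before the start and was found in 1.65% of all windows. The letters of the phorbol ester response element, TGAGTCA or TGACTCA, were in no member window and in 4.20% of all windows. Each motif was searched on both strands and may overlap another. These are matches of letters, and the arrays measured no binding.

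Each target was represented by 3 probes, and a gene's value was set against a baseline on its own array. The baseline was the mean plus 2 SD of 10 control genes, which the study described as seminal proteins and took as unlikely to be expressed. On replicates 1 to 4 it was 9.47, 9.94, 10.69 and 10.32 log2 units, so the same level gave a smaller distance on replicate 3 than on replicate 1. The controls were not alike. AFG2A (SPATA5) read 9.21 to 10.73 and SPATA13 read 9.23 to 10.12 over the 4 arrays, while the other 8 controls lay between 6.05 and 7.72. AFG2A was above the baseline on replicate 3, and without these 2 genes the mean baseline was 7.78 in place of 10.10. Whether these 2 genes are expressed in the line was not tested. A gene was detected where its mean distance over the 4 arrays was above 0. Probes differ in affinity, so a distance is not an amount of message, and it orders no 2 genes by abundance. Of the 7 markers fixed for the line 6 were detected, among them VIM, CDH2, KRT8 and NEFL, and PAX2 was not. Of all named genes 52.7% were detected. Of the 6 markers, 5 were above the baseline on all 4 arrays. The other, the neurofilament gene NEFM, was detected only by its mean of 0.66 ± 3.08 log2 units (SD, n = 4). It stood apart between arrays, with distances of 4.10 and 2.40 on replicates 1 and 3 and of -1.62 and -2.24 on replicates 2 and 4. For this reason values for each of these pairs of arrays are given where they change a call.

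Of the 8 PKC genes 7 were detected, and for 6 each of the 4 arrays was above the baseline. The background was 52.7% of all named genes detected and 45.0% above the baseline on all 4 arrays. A limma test of the distances against 0, one-sided and adjusted over all genes by Benjamini-Hochberg, called 6 PKC genes and 45.9% of all genes. Its standard error was 0.351 log2 units for every gene, so p follows the mean distance and not the gene's own SD. The test took the baseline as known. The median distance of the 8 genes was 1.52 log2 units, and that of all genes was 0.26. In order of mean distance the genes were PRKCA, PRKCZ, PRKCD, PRKCH, PRKCI, PRKCE, PRKCB and PRKCQ. The gaps between PRKCZ and PRKCD and between PRKCH and PRKCI were far smaller than the spread over arrays.

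**Figure D1:**
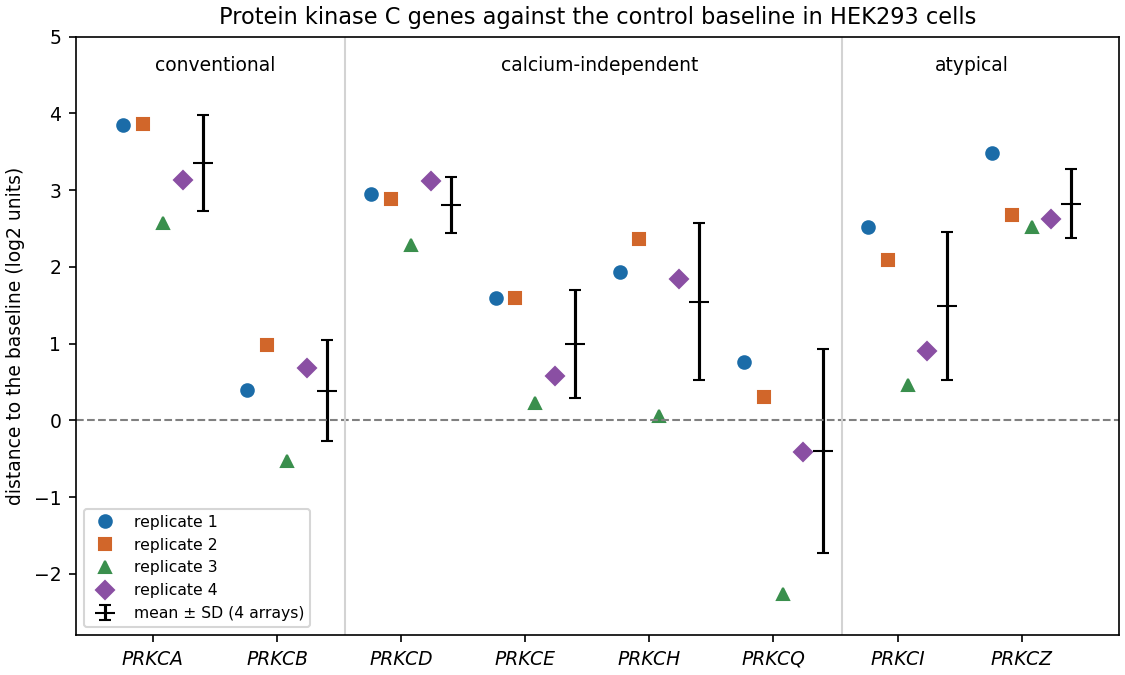
Distance of each PKC gene to the baseline of its array in log2 units, with 1 symbol for each of the 4 replicates and the mean ± SD beside them. The dashed line at 0 is the baseline. PRKCA, PRKCD, PRKCE, PRKCH, PRKCI and PRKCZ lie above it on all 4 arrays, PRKCB on 3 and PRKCQ on 2.

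Among the conventional isoforms, PRKCA, the widely expressed alpha isoform, stood 3.85, 3.86, 2.57 and 3.13 log2 units above the baseline on replicates 1 to 4. All 4 arrays were far above 0, and the mean was 3.35 ± 0.62 (SD, n = 4, limma adjusted p = 5.3e-21). Its level before subtraction was 13.46 ± 0.24 (SD, n = 4), so its arrays lay closer together before the baseline was taken off.

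The probes of PRKCA did not behave alike. Probes 7314 and 8576, named by the number in their identifier, ran from 13.72 to 14.24 and from 13.29 to 14.22 log2 units over the 4 arrays. Probe 8041 read 9.58, 12.44, 6.54 and 12.61 on replicates 1 to 4. It was high on replicates 2 and 4 and, on replicate 3, near the bottom of the scale. Its range of 6.06 log2 units was reached or passed by 150 of the 71998 probes (0.208%). The other probes set the gene's value, since it moved only to 3.80 ± 0.61 (SD, n = 4) without probe 8041.

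PRKCB, the beta isoform, is known from B lymphocytes, platelets and neurons and gives rise to the splice forms beta I and beta II. Its distance was 0.40, 0.99, -0.54 and 0.68 log2 units on replicates 1 to 4. It was above the baseline on 3 arrays and below it on replicate 3, and the mean of 0.38 ± 0.66 (SD, n = 4) did not pass the test (limma adjusted p = 0.281). By the rule on the mean the gene was detected, but its distance was smaller than the spread between arrays.

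PRKCB had 2 targets, and they fell on opposite sides of the baseline. The target NM_002738 stood at 1.53, 2.17, 0.66 and 1.76 log2 units, above the baseline on all 4 arrays, with a mean of 1.53 ± 0.63 (SD, n = 4). The target NM_212535 stood at -0.73, -0.19, -1.74 and -0.40, below it on all 4, with a mean of -0.76 ± 0.69 (SD, n = 4). The difference came from a single probe. Probe 1930 of NM_002738 read 12.36, 13.45, 12.72 and 13.42 log2 units, above the baseline on all 4 arrays. The means of the other 5 PRKCB probes, over both targets, ran from 8.63 to 9.89, and none of them was above the baseline on more than 2 arrays. Without probe 1930 the gene's distance was -0.70 ± 0.69 (SD, n = 4), below the baseline on all 4 arrays. By the median of the probes of each target it was -0.37. Which splice forms a probe can bind was not examined, since no probe sequences were used here.

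In all 6 PRKCB probes replicates 2 and 4 lay above replicates 1 and 3 without overlap, and so they did for the gene, at a mean level of 10.96 against 10.01 log2 units. On replicates 2 and 4 alone its distance was 0.84 (limma adjusted p = 0.017), and on replicates 1 and 3 alone it was -0.068. At the gene level such an order of the arrays was found for 3 of the 8 members, PRKCA, PRKCB and PRKCH, and for 18.5% of all genes. It was found for 16.8% of all probes and for 12 of the 27 PKC probes. The reverse order was found for 21.1% of all probes and for 1 PKC probe, 1720 of PRKCZ. Probes of a gene share their RNA and their arrays, so these counts are not 27 separate observations.

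**Figure D2:**
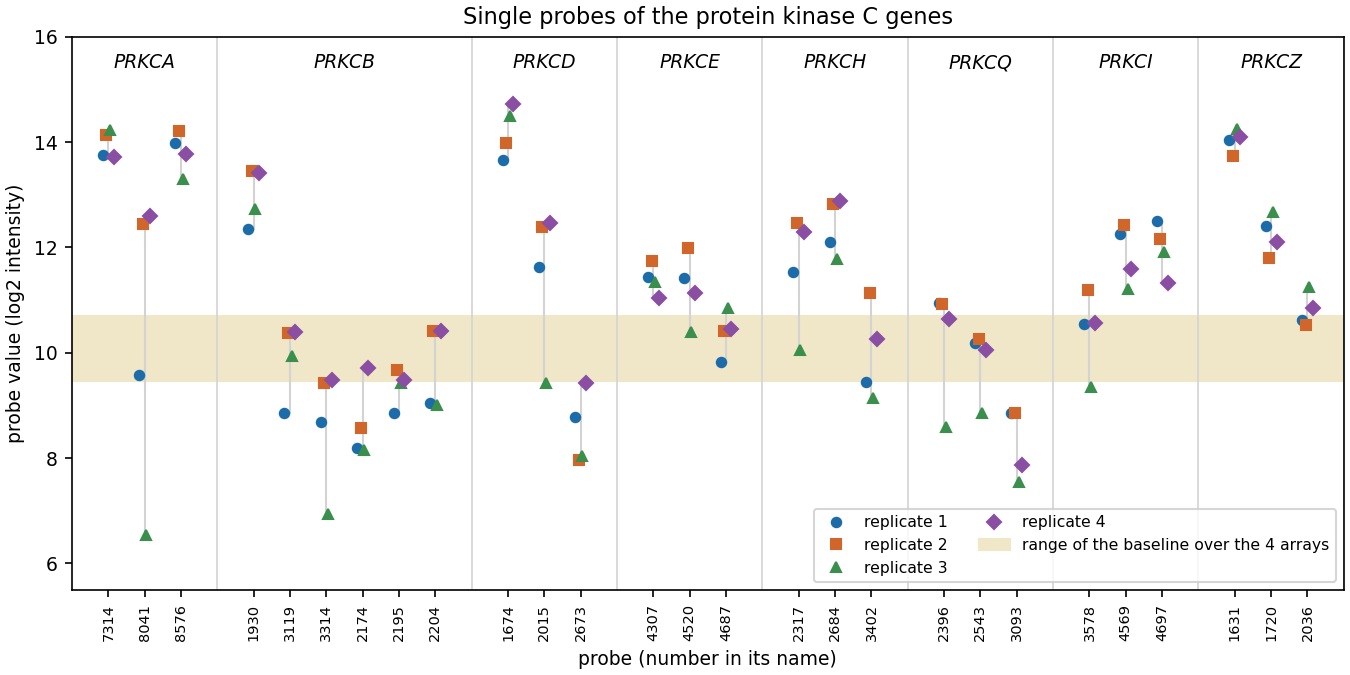
Value of each of the 27 PKC probes in log2 intensity on the 4 arrays, with grey lines joining the lowest and the highest array. PRKCB probes 1930, 3119 and 3314 belong to NM_002738 and probes 2174, 2195 and 2204 to NM_212535, and the shaded band spans the baselines of the 4 arrays, 9.47 to 10.69. Probe 1930 of PRKCB and probe 1674 of PRKCD lie far above the other probes of their genes, and probe 8041 of PRKCA spreads from 6.54 to 12.61.

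Of the calcium-independent isoforms, PRKCD, the delta isoform linked to apoptosis and DNA damage responses, stood 2.96, 2.88, 2.28 and 3.11 log2 units above the baseline. The 4 arrays lay close together, at 2.81 ± 0.36 (SD, n = 4, limma adjusted p = 3.3e-15). The value leaned on probe 1674, which read 13.66, 13.98, 14.50 and 14.72. Probe 2015 read 11.62, 12.39, 9.42 and 12.46, below the baseline on replicate 3 only. Probe 2673 read 8.78, 7.97, 8.04 and 9.43, below the baseline on all 4 arrays. The span of 5.66 log2 units between the means of these probes was wider than in 98.2% of the named targets, whose median span was 1.48. Without probe 1674 the distance of PRKCD was 0.59 ± 1.60 (SD, n = 4), above the baseline on 3 arrays.

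PRKCE, the epsilon isoform, is known for roles in the heart and in pain-sensing neurons. It stood 1.60, 1.59, 0.22 and 0.58 log2 units above the baseline on replicates 1 to 4. All 4 arrays were above 0, with replicates 3 and 4 below the others, and the mean was 1.00 ± 0.70 (SD, n = 4, limma adjusted p = 0.0053). Its probes were the most alike among the members with 1 target, with means of 10.38 to 11.39 log2 units. The call was lost without replicate 2, at 0.80 (limma adjusted p = 0.077), and on replicates 3 and 4 or 1 and 3 alone, at 0.40 and 0.91 (limma adjusted p = 0.274 and 0.170).

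PRKCH, the eta isoform, is best known from epithelia and lymphocytes. Its distance was 1.93, 2.36, 0.051 and 1.84 log2 units, so that replicate 3 lay almost on the baseline and the other 3 arrays well above it. The mean was 1.55 ± 1.02 (SD, n = 4, limma adjusted p = 1.5e-05), and 2.04 without replicate 3. Probe 2684 was above the baseline on all 4 arrays, probe 2317 on 3 and probe 3402 on 1. In all 3 probes replicates 2 and 4 lay above replicates 1 and 3, and the level of the gene was 12.23 against 11.07. That difference of 1.16 log2 units was larger than the same difference for 96.1% of all genes. On replicates 1 and 3 alone the distance was 0.99 and on replicates 3 and 4 alone 0.95, and neither passed the test (limma adjusted p = 0.135 and 0.070).

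PRKCQ, the theta isoform, is known from T lymphocytes, where it acts at the contact with the antigen-presenting cell, and from skeletal muscle. It was the member that was not detected. Its distance was 0.76, 0.30, -2.26 and -0.41 log2 units on replicates 1 to 4, a mean of -0.40 ± 1.33 (SD, n = 4), above the baseline on 2 arrays and far below it on replicate 3. The spread was the widest of the 8 genes, and 0 lay within it. Without replicate 3 the mean was 0.22 (limma adjusted p = 0.541). Before subtraction the level was 10.23, 10.24, 8.43 and 9.91, so replicate 3 was the lowest there too. With the 364 olfactory receptor genes as controls, PRKCQ stood at 1.68 log2 units (limma adjusted p = 1.6e-05). The side of the baseline on which it fell thus depended on the controls.

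PRKCB, PRKCH and PRKCQ are abundant in blood cells, so blood markers were examined beside them. At the reported baseline none of 12 blood cell markers was detected (0 of 12). Their mean distances ran from -3.63 to -0.75 log2 units with a median of -3.14. The pan-leukocyte marker PTPRC stood at -3.50 ± 0.50 and the T cell marker CD3E at -3.56 ± 0.56 (SD, n = 4 for each). Of 8 markers of differentiated kidney 0 were detected, with means from -3.65 to -1.78. The limma test was one-sided and could call no gene with a mean below the baseline, so it adds nothing for these 20 markers. Whether a marker was detected depends on the controls too. With olfactory receptor genes as controls the mean baseline was 8.02. The mean levels of CD79A, CORO1A and ITGB2, 9.36, 9.09 and 8.58, lay above it, and those of the other blood markers lay below it. Of the kidney markers, SLC34A1 and NPHS1 also lay above it, at 8.32 and 8.28. AQP1 lay almost on it at 8.02, and the remaining kidney markers lay below it. No limma result at that baseline is given for the markers.

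Both atypical isoforms were above the baseline on all 4 arrays. PRKCI, the iota isoform, which acts with the PAR proteins in epithelial polarity, stood at 2.52, 2.08, 0.47 and 0.90 log2 units. Replicates 1 and 2 lay above replicates 3 and 4 without overlap, and the mean was 1.49 ± 0.97 (SD, n = 4, limma adjusted p = 2.9e-05). The deposited values of replicates 1 and 2 share 1 distribution and those of replicates 3 and 4 another, with sorted values within 0.01 at 99.97% and 99.99% of probes. The part of this in the difference was not tested. On replicates 3 and 4 alone the distance of PRKCI was 0.68 (limma adjusted p = 0.078). Its probes 4569 and 4697 were above the baseline on all 4 arrays and probe 3578 on 3. A pseudogene of PRKCI, PRKCIP1, is listed by RefSeq, and whether the probes also bind its sequence was not tested.

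PRKCZ, the zeta isoform, also gives rise to a shorter form in brain that lacks the regulatory domain. It stood at 3.49, 2.68, 2.51 and 2.62 log2 units, with replicate 1 apart from the others, and the mean was 2.83 ± 0.45 (SD, n = 4, limma adjusted p = 2.3e-15). It was the only member of which every probe was above the baseline on all 4 arrays. Probe 1631 read 13.74 to 14.24 log2 units, probe 1720 read 11.81 to 12.67 and probe 2036 read 10.54 to 11.25. The array targeted the accession NM_001033581, 1 of several PRKCZ transcripts in RefSeq, and the target does not show from which start the message came.

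Over all members, 12 of 27 probes were above the baseline on all 4 arrays, 5 on none and 10 on 1 to 3 arrays. Of all 71998 probes, 24720 were above it on all 4 arrays and 34272 on none. Replicate 3 had the lowest value for 15 of the 27 probes (55.6%), against 21.5% of all probes. At the gene level replicate 3 was the lowest array for 4 of the 8 members and for 21.3% of all genes. The median SD of a member's level over the 4 arrays was 0.45 log2 units, close to 0.42 for all genes. The labelling began from double-stranded cDNA, so antisense messages could not be told from sense ones. RefSeq lists an antisense gene over 5 of the 8 members, PRKCA, PRKCE, PRKCH, PRKCQ and PRKCZ, and the part of these genes in the signals was not tested.

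The next question was whether message was found for the proteins that PKC works with. Lists of such genes gave 43 of 58 matched genes detected, with a median distance of 1.52 log2 units, and the limma test called 39. Of all named genes 52.7% were detected and 45.9% called. The lists differed, with 6 of 10 diacylglycerol kinases, 3 of 6 other diacylglycerol receptors and 9 of 14 substrates and anchors detected. For these small lists the share was not far from that of all genes, and no list was tested against all genes. Among the relatives of PKC, the PKC-related kinases PKN3 and PKN2 stood at 3.10 ± 0.52 and 2.98 ± 0.60 log2 units (SD, n = 4 for each). The protein kinase D genes, whose products PKC switches on, were also detected, with PRKD3 at 2.20 ± 1.16, PRKD1 at 1.86 ± 0.45 and PRKD2 at 1.26 ± 0.83 (SD, n = 4 for each).

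All 10 genes for the maturation and turn-off of PKC were detected and called by limma. A newly made PKC is bound by HSP90 and CDC37 and phosphorylated through PDPK1 and the mTORC2 complex. HSP90AB1 stood at 5.25 ± 1.21, CDC37 at 4.74 ± 0.49 and HSP90AA1 at 4.61 ± 1.03 log2 units (SD, n = 4 for each). RICTOR, the subunit that marks mTORC2, stood at 1.12 ± 1.15 (SD, n = 4), at 2.68, 1.06, 0.84 and -0.10 on replicates 1 to 4, and was the only one not above the baseline on all 4 arrays. PHLPP2, a phosphatase that removes the priming phosphates, stood at 1.09 ± 0.84 (SD, n = 4).

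Diacylglycerol kinases end the signal by turning diacylglycerol into phosphatidic acid. Of these 10 genes 6 were detected and 5 called by limma. DGKA stood at 2.50 ± 0.52, DGKE at 1.82 ± 0.31 and DGKZ at 1.67 ± 0.70 log2 units (SD, n = 4 for each). DGKH was above the baseline on all 4 arrays, by 0.49, 0.21, 0.15 and 0.46, and did not pass the test (limma adjusted p = 0.353). DGKB, DGKG, DGKI and DGKK lay below the baseline on all 4 arrays, with means from -3.24 to -2.17.

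Other proteins also bind diacylglycerol through the C1 domain that PKC carries. Of 9 such genes 6 were matched, 3 were detected and 2 called by limma. CHN1, a chimaerin that turns off Rac, stood at 4.38 ± 0.56 and UNC13B, a vesicle priming factor, at 2.87 ± 0.66 log2 units (SD, n = 4 for each). CHN2, the other chimaerin, was detected at 0.17 ± 0.87 (SD, n = 4) without passing the test (limma adjusted p = 0.624). The 3 matched RASGRP genes, Ras activators known from blood cells, lay below the baseline on all 4 arrays.

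Partners of the atypical isoforms were detected in 9 of 11 cases. PARD3, the scaffold of the polarity complex, stood at 3.50 ± 0.44, the adaptor SQSTM1 at 3.39 ± 0.63 and the kinase MAP2K5 at 3.13 ± 0.56 log2 units (SD, n = 4 for each). Of the 3 PARD6 genes, whose products tie atypical PKC to CDC42, PARD6G stood at 1.39 ± 0.49 (SD, n = 4) and was called. PARD6A and PARD6B stood at -0.94 ± 0.87 and -1.06 ± 1.08 (SD, n = 4 for each), each above the baseline on replicate 1 only. LLGL2, a polarity protein that atypical PKC phosphorylates, was called at 0.73 ± 0.55 (SD, n = 4) and limma adjusted p = 0.041.

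Of 14 substrates and anchors 9 were detected and 7 called. The scaffold RACK1 stood at 5.68 ± 0.64, MARCKSL1 at 4.60 ± 0.87 and the adducin ADD1 at 4.59 ± 0.56 log2 units (SD, n = 4 for each). MARCKS, a classical PKC substrate at the plasma membrane, stood at 4.58 ± 0.85 (SD, n = 4). AKAP5 at 0.39 ± 0.65 and ADD2 at 0.67 ± 0.61 (SD, n = 4 for each) were detected and did not pass the test (limma adjusted p = 0.273 and 0.060). The neuronal substrate NRGN and the platelet and leukocyte substrate PLEK lay below the baseline on all 4 arrays, at -3.50 ± 0.41 and -3.14 ± 0.41 (SD, n = 4 for each). The lists share the arrays and the baseline with the PKC genes, and no list was tested against another.

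**Figure D3:**
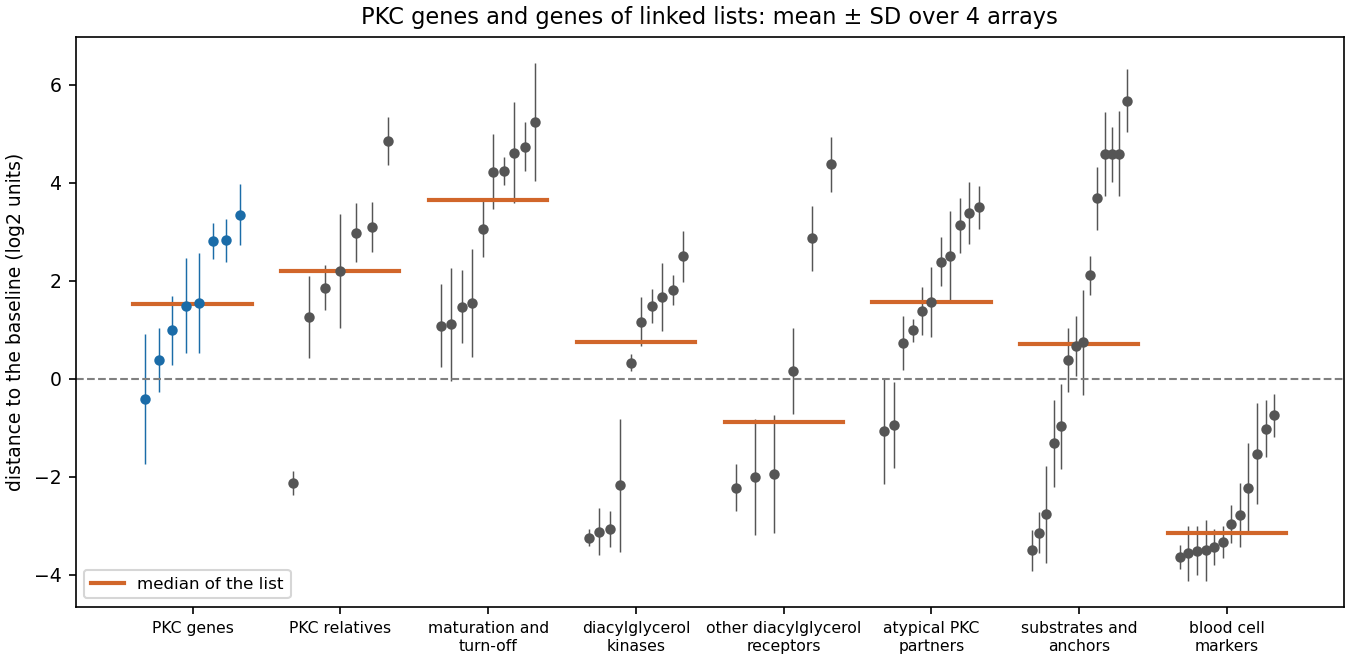
Mean distance to the baseline in log2 units of each gene, with bars of 1 SD over 4 arrays, for the PKC genes, the lists of linked genes and the blood cell markers, and orange lines for the median of each list. All 10 genes for maturation and turn-off lie above 0 and all 12 blood cell markers below it, while the diacylglycerol kinases fall into 6 above and 4 below.

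How far each call depends on the baseline was then examined. PRKCA, PRKCD and PRKCZ were above the baseline and called by limma under each of 20 other settings, with distances of 2.04 to 5.68, 1.49 to 5.14 and 1.51 to 5.15 log2 units. With a baseline of 3 SD the limma test called only these 3 genes. At that height 5 of the 8 PKC genes and 39.1% of all genes were detected, and the share of all genes called is not given. PRKCH and PRKCI were above the baseline under each setting, by 0.23 and 0.18 log2 units at the lowest. With 1 SD, with olfactory receptor genes or without SPATA5 and SPATA13 as controls, all 8 genes lay above the baseline, and so did 64.3%, 71.4% and 74.0% of all genes. PRKCB and PRKCQ were then both called by limma, PRKCB at 1.70, 2.47 and 2.71 log2 units (limma adjusted p = 1.8e-07, 3.0e-09 and 3.6e-12).

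**Figure D4:**
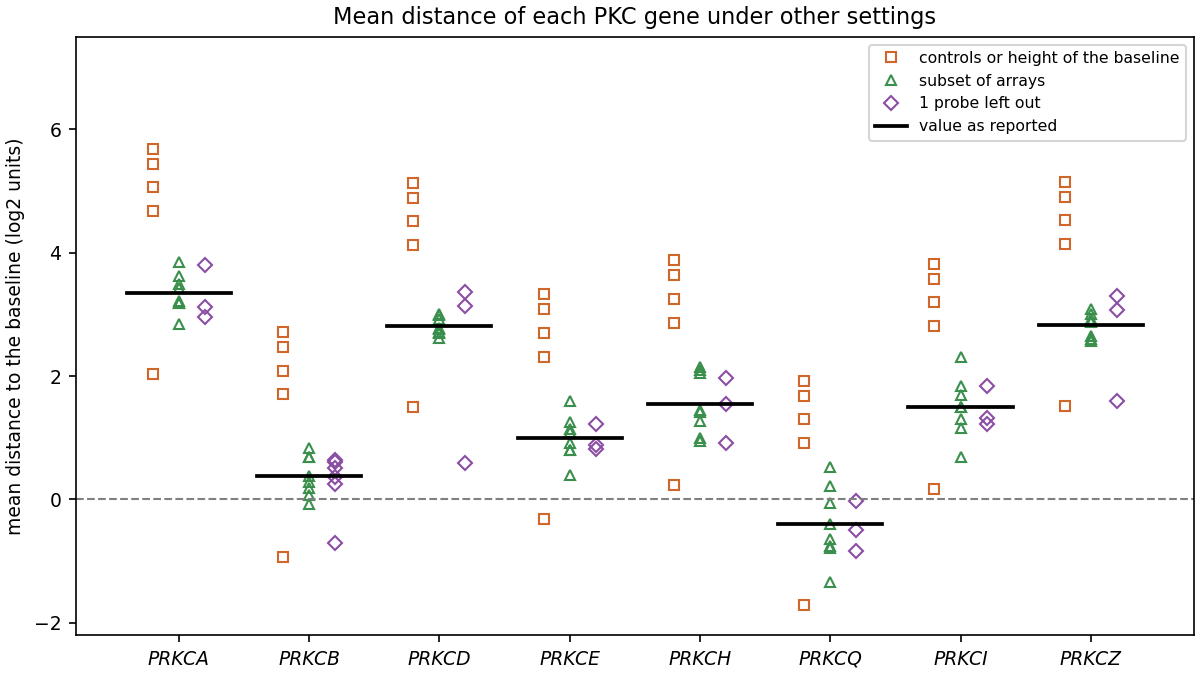
Mean distance of each PKC gene to the baseline in log2 units as reported (black line) and under other settings, grouped into other controls or heights of the baseline (squares), subsets of the arrays (triangles) and leaving out 1 probe (diamonds). Other controls move all 8 genes together, PRKCB, PRKCE and PRKCQ change sign under some settings, and PRKCD drops to 0.59 without its highest probe.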

How the data were processed

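Per the labels and the study's methods, double-stranded cDNA was made from total RNA with oligo(dT), labelled with Cy3 and hybridised to NimbleGen arrays designed on HG18. The authors deposited 1 log2 intensity per probe and array. The methods name NimbleScan for extraction, the submitters' processing notes name RMA with no settings, and background correction is not given in the sources used here. No raw intensities were used, so saturation was not examined. The number of arrays limits the precision.

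Accessions were matched without versions to RefSeq genes of GRCh38.p14, which named 19125 of 24000 targets and 17217 genes. Probes of a target were averaged on the linear scale before log2, and targets of a gene on the log2 scale. Of 11 control genes 10 were matched. limma 3.58 in R 4.3 tested distances to the baseline over all genes, one-sided, with Benjamini-Hochberg adjustment at 0.05. The prior degrees of freedom were infinite, so each gene had a standard error of 0.351, and a shift of the baseline moves all genes together. An exact sign-flip test of 4 arrays cannot go below 0.0625. The script was tested on simulated data. Named were all 8 members and, of each list from textbook knowledge, up to 3 genes with the largest distance, up to 2 nearest to 0 and those on which the call rules differed. Other list genes in the text were named after their values were seen. Results for some list genes are not reported here. The members and lists were chosen with earlier results of these data known. Alternatives covered the controls, the height of the baseline, probe and target summaries, normalization, dim genes, the test and subsets of arrays.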

Additional observations from a re-analysis of the deposited data

Results flagged for a closer look

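Of 103 genes, probes and measures examined for an array apart from the other 3, 3 stood out, and chance marks about 1 in 20. For PRKCZ the distance on replicate 1, 3.49, was apart from 2.51 to 2.68 elsewhere, and the gap divided by the range was 0.834. In the level before subtraction the ratio was 0.562 and replicate 1 lay between the other arrays. Probe 2396 of PRKCQ read 8.59 on replicate 3, where the other arrays gave 10.64 to 10.94, with a ratio of 0.873, and probe 2543 of PRKCQ read 8.86 there against 10.06 to 10.26, with a ratio of 0.855. The distance of PRKCQ itself gave 0.614.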

How the results depend on the processing

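The numbers of PKC genes detected, of all genes detected and of linked genes detected stayed within 1.5 times the reported counts under every alternative run. Leaving out 1 array gave 7 to 8 PKC genes detected, 5 to 6 called by limma, 8715 to 9343 of all genes and 42 to 43 linked genes. The limma count of PKC genes was 3 with a baseline of 3 SD (11.42 log2 units) and 3 on replicates 3 and 4 alone. In these settings 5 and 7 PKC genes were detected, and 39.1% and 48.8% of all genes. The shares of all genes called by limma there are not given. PRKCB changed sign to -0.93 with 3 SD, -0.37 with the median of probes, -0.068 on replicates 1 and 3 alone, -0.70 without probe 1930 and -0.76 by the target NM_212535 alone. It gained the limma call at 1.70 with 1 SD, 2.09 with the median and MAD of the controls, 2.47 with olfactory receptor genes, 2.71 without SPATA5 and SPATA13, 1.50 by the highest target and 0.84 on replicates 2 and 4 alone. PRKCE changed sign to -0.32 with 3 SD. PRKCQ changed sign to 0.92 with 1 SD (8.79 log2 units), 1.30 with the median and MAD of the controls (8.40), 1.93 without SPATA5 and SPATA13 (7.78), 1.68 with olfactory receptor genes (8.02), and 0.53 on replicates 1 and 2 alone. Leaving out 1 array gave PRKCQ -0.79 to 0.22, the latter without replicate 3. Among the members' distances tested by limma 136 alternative values kept direction and call. Another 8 kept direction and lost the call, 6 kept direction and gained it, and 10 changed sign. Of those that changed sign, PRKCE with 3 SD lost the call. PRKCQ gained it with 1 SD, the median and MAD, olfactory receptor genes and without SPATA5 and SPATA13. Many of the alternative values moved by more than the SD over arrays, since another baseline shifts all genes. Of the distances with no test, 22 moved by less than 1 SD and 5 by more with the sign kept. The other 2, PRKCB without probe 1930 and by the target NM_212535 alone, changed sign and also moved by more than 1 SD. The probes and the PRKCB targets left out singly were chosen after seeing the data. The cause was not tested for any of these. No paired analysis was possible because the design holds 1 group. With replicates 1 and 2 and replicates 3 and 4 as a random block, limma called 6 PKC genes, with PRKCE at limma adjusted p = 0.024. Across genes, replicates 1 and 3 (Pearson r = 0.9706) and 2 and 4 (0.9775) were the most alike, against 0.9487 to 0.9591 for other pairs. A block of those pairs was not run, so this result does not cover that likeness.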
